A study of Rattus norvegicus with 3 samples.

Results

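The 10 wound matrix genes described here are Fn1, Spp1, Tnc, Thbs1, Cd44, Postn, Sparc, Tgfb1, Tgfbi and Tgm2, which encode proteins of the provisional matrix laid down in injured tissue, a cell surface receptor for it, and transforming growth factor beta 1. They were picked out by gene symbol from 32883 genes in the deposited tables, and were chosen with earlier results of these data known. Each symbol had 1 row, and all 10 were among the 15543 genes that reached 1 CPM (a count scaled to the size of its library) in any of the libraries. The animals were Sprague-Dawley rats at postnatal day 60, and retinal RNA was sequenced in 1 library per group. The HIOP_GSK library came from retina injured by high intraocular pressure after pretreatment with a drug named only as GSK, which was given into the anterior chamber 24 h ahead of the ischemia. The HIOP library came from retina injured in the same way without the drug: the pressure was raised to 110 mmHg for 60 min, which interrupts the retinal blood supply, and the animals survived for 12 h after its return to normal. The CTL library is labelled as untreated, while the protocol also mentions sham surgery, in which the needle was placed at 2.66 kPa, and the sources used here do not settle which of these holds for CTL. Nor do they give the dose and identity of the drug, the number of animals in each library or a library from an eye given vehicle alone.

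When tissue is injured, fibronectin (Fn1) and the matricellular proteins thrombospondin 1 (Thbs1), osteopontin (Spp1), tenascin C (Tnc), periostin (Postn) and SPARC are deposited or secreted around cells and change how cells attach and move. Integrins and CD44, a hyaluronan receptor that also binds osteopontin, read this matrix. Transforming growth factor beta 1 (Tgfb1) is secreted in a latent form that thrombospondin 1 and some integrins can activate, and among its known target genes are Fn1, Postn and Tgfbi. Transglutaminase 2 (Tgm2) crosslinks matrix proteins, fibronectin among them. In the retina, Müller glia, astrocytes, vascular cells and infiltrating phagocytes are all known sources of such proteins.

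Promoter windows of 8 of the 10 genes (250 bases before to 50 after the annotated start, 300 in all) were taken from RefSeq on the rat build GRCr8; Fn1 and Tgm2 had no entry. The windows of 3 genes are printed because they had the largest ratios in these data: Cd44 and Thbs1 in HIOP over CTL, and Tgfbi in HIOP_GSK over HIOP. Capitals mark matches on either strand to the motifs searched.
Cd44 (chr3:109699375-109699674, minus strand, GRCr8): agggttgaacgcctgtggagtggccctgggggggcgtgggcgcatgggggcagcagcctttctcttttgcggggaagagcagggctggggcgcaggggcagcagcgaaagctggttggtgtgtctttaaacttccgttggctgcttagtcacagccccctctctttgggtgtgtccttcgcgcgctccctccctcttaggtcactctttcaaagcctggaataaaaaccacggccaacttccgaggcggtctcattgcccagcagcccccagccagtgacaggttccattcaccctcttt
Thbs1 (chr3:125510000-125510299, plus strand, GRCr8): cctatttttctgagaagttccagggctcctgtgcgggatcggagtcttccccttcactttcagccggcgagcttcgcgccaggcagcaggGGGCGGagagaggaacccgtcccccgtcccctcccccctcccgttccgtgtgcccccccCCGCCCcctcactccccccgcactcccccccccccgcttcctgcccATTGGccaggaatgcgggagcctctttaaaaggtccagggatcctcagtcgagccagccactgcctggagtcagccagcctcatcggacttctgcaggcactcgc
Tgfbi (chr17:7990064-7990363, minus strand, GRCr8): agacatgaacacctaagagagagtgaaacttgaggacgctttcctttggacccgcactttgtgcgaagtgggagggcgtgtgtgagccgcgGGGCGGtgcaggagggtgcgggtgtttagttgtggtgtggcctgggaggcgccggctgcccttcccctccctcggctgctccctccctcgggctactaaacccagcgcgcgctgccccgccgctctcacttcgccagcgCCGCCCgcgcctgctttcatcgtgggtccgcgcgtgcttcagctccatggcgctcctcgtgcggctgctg
The motifs were the AP-1 site TGANTCA, the GC box GGGCGG, the TATA box TATAAA, the CCAAT box CCAAT, the SMAD element CAGACA, and the CArG box and the NF-kB site, which were searched by their usual consensus. No motif overlapped another in the printed windows. The Cd44 window held none of them, the Thbs1 window held 2 GC boxes and 1 CCAAT box, and the Tgfbi window held 2 GC boxes. The AP-1 site was in 0 of the 8 members' windows and in 7.33% of all 33469 windows, and the CArG box was in 0 of 8 and in 1.64%. The GC box was in 3 of 8 members' windows (Thbs1, Tnc and Tgfbi) and in 33.1% of all windows. The TATA box letters were in 3 of 8 (Postn, Tnc and Spp1) and in 14.2%. The SMAD element was in 2 of 8 (Tnc and Sparc) and in 21.1%, the NF-kB site in 1 of 8 (Tgfb1) and in 4.18%, and the CCAAT box in 1 of 8 (Thbs1) and in 37.5%. A match describes the letters in this window only, and no match says nothing about the factor. GC content was 60.3% in the Cd44 window, 67.0% in that of Thbs1 and 66.7% in that of Tgfbi, against a median of 51.7% over all windows.

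The deposited counts summed to 15132754 in HIOP_GSK, 17221510 in HIOP and 16090064 in CTL. With 1 library per group no test between conditions was possible, no difference below has a replicate check, and each interval is an exact 95% interval of the counts, which covers counting error only. Genes whose ratio reached 2-fold in either direction are counted as higher or lower. Rod markers had a summed CPM of 18400 in HIOP_GSK, 25700 in HIOP and 26800 in CTL, and were thus abundant in each library. Markers of other tissues and cells differed between the libraries. The 9 lens genes summed to 9960 CPM in HIOP_GSK, 2480 in HIOP and 867 in CTL, and the 6 genes of the cornea and surface epithelium to 69.5, 17.9 and 274 CPM in HIOP_GSK, HIOP and CTL. The 11 microglia and macrophage genes analysed summed to 189 CPM in HIOP_GSK, 78.9 in HIOP and 44.7 in CTL, and the 7 neutrophil genes to 138, 123 and 1.68 CPM in the same order. In bulk retina, a change in the number of cells of a type and a change in RNA per cell cannot be told apart. The part of any of these tissues or cells in the results below was not tested.

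**Figure D1:**
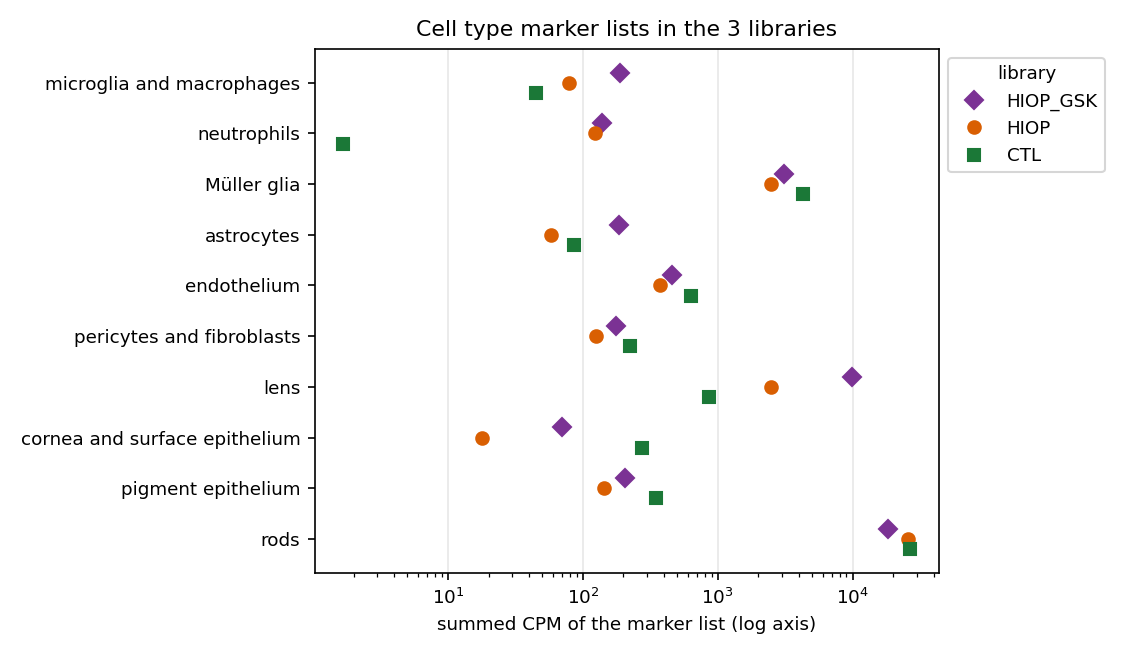
Summed CPM (log axis) of each cell type marker list in the HIOP_GSK, HIOP and CTL libraries, 1 point per library. Lens and microglia and macrophage markers were highest in HIOP_GSK, neutrophil markers were near 0 only in CTL (1.68 CPM), and cornea and surface epithelium markers were highest in CTL (274 CPM).

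The 10 genes together took 0.194% of counts in HIOP_GSK, 0.128% in HIOP and 0.0731% in CTL. Levels between genes were compared per length, as the deposited TPM (transcript abundance scaled by gene length and to a fixed sum). In HIOP_GSK, Cd44 was the highest at 264 TPM, followed by Sparc at 223, Spp1 at 99.2, Thbs1 at 97.1, Fn1 at 43.1, Postn at 23.2, Tnc at 20.2, Tgm2 at 17.7, Tgfb1 at 15.1 and Tgfbi at 12.5 TPM. In HIOP, Cd44 was again the highest at 262 TPM and Sparc followed at 195, with Thbs1 at 40.5, Spp1 at 31.3, Tgfb1 at 13.6, Fn1 at 12.9, Tgm2 at 11.8, Postn at 10.5, Tnc at 9.15 and Tgfbi at 1.76 TPM. In CTL, Sparc stood alone at 292 TPM, and Cd44 at 29.0, Postn at 26.5, Tnc at 9.75, Spp1 at 8.46, Tgm2 at 8.32, Fn1 at 6.24, Thbs1 at 5.28, Tgfb1 at 3.98 and Tgfbi at 2.03 TPM followed. Neighbours whose counting intervals overlapped were Spp1 and Thbs1, Tgm2 and Tgfb1, and Tgfb1 and Tgfbi in HIOP_GSK. In HIOP the 5 genes from Tgfb1 down to Tnc overlapped each with the next, and in CTL Cd44 overlapped with Postn, Tnc with Spp1, Spp1 with Tgm2, Fn1 with Thbs1 and Thbs1 with Tgfb1. Thbs1 was the fourth highest of the 10 in HIOP_GSK, the third in HIOP and the eighth in CTL, and it had a higher TPM than 94.4% of all compared genes in HIOP_GSK, 82.9% in HIOP and 33.1% in CTL. Sparc stayed above at least 97.7% of the compared genes in each of the 3 libraries.

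**Figure D2:**
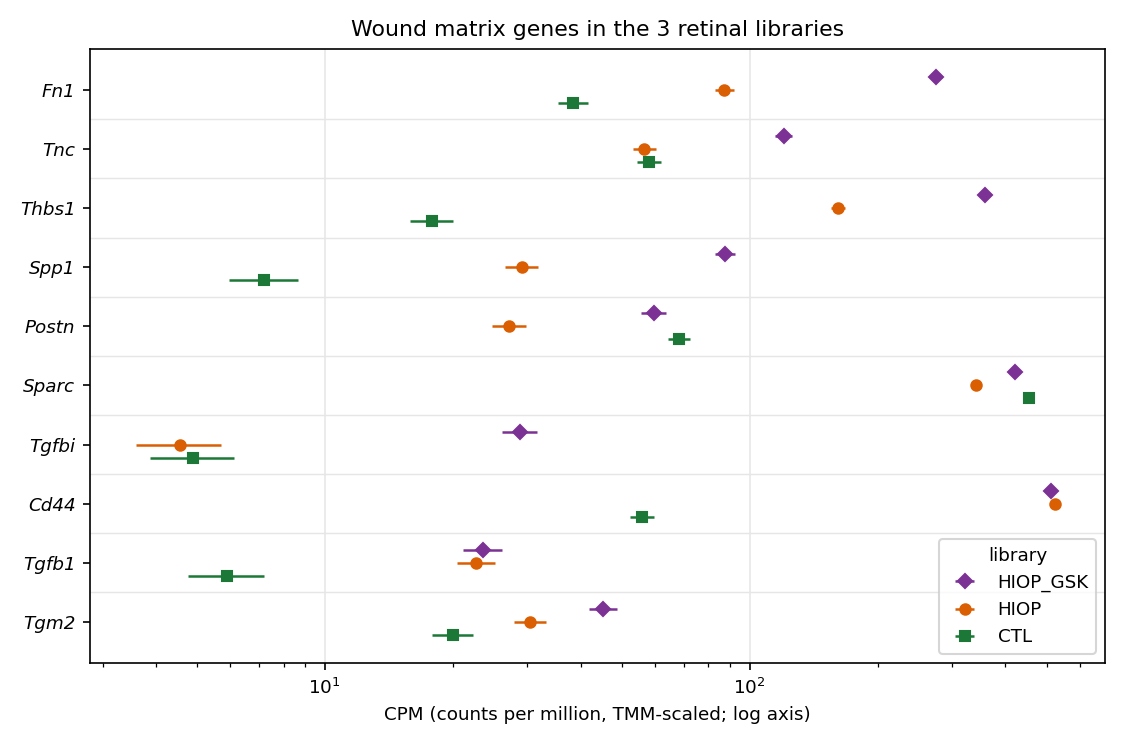
CPM (log axis) of the 10 wound matrix genes in the HIOP_GSK, HIOP and CTL libraries, 1 point per library with its 95% counting interval (bars shorter than the marker are hidden). Fn1, Spp1, Thbs1 and Tgm2 are highest in HIOP_GSK and lowest in CTL, Cd44 and Tgfb1 lie together in both injured libraries, and Tgfbi stands apart only in HIOP_GSK (28.8 CPM).

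The HIOP library was set against CTL to describe the matrix genes 12 h after ischemia. The receptor Cd44 and the matricellular gene Thbs1 were about 9 times higher in HIOP, Spp1 and Tgfb1 about 4 times higher, and Fn1 a little over 2 times higher. Tnc, Tgfbi, Sparc and Tgm2 were within 2-fold, and Postn was lower. In all, 5 of the 10 genes were higher by 2-fold or more and 1 was lower, where 9.0% of the 15543 compared genes were higher and 8.04% lower. The median log2 ratio of the members was 0.89, and that of all compared genes was 0.00. Here and in the comparisons below, a gap between members and all genes cannot be told apart from the way the members were chosen.

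The HIOP_GSK library was set against HIOP to compare injured retina that had received the drug with injured retina that had not. The 6 genes Tgfbi, Fn1, Spp1, Thbs1, Postn and Tnc were at least 2-fold higher in HIOP_GSK and none of the 10 was at least 2-fold lower, where 4.56% of compared genes were higher and 1.69% lower. The median log2 ratio of the members was 1.11, beside a median of 0.00 over all compared genes. Cd44 and Tgfb1 had nearly the same level in both injured libraries. All 9 lens markers, 9 of the 11 microglia and macrophage markers, 5 of the 6 cornea and surface epithelium markers and 3 of the 8 Müller glia markers were also 2-fold or more above HIOP in HIOP_GSK. So were 2 of 7 compared markers of pericytes and fibroblasts, 1 of 5 of endothelium, 1 of 5 of neutrophils and 1 of 2 of astrocytes, but none of the rods or the pigment epithelium. The part of these cells in the members' ratios was not tested. Because HIOP enters both comparisons, a high or low value of that library moves the ratios in opposite directions. Against CTL, HIOP_GSK had 8 of 10 members at least 2-fold higher, all but Postn and Sparc, and none lower, where 10.4% of compared genes were higher and 6.32% lower, with a median log2 ratio of 2.25 for the members.

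**Figure D3:**
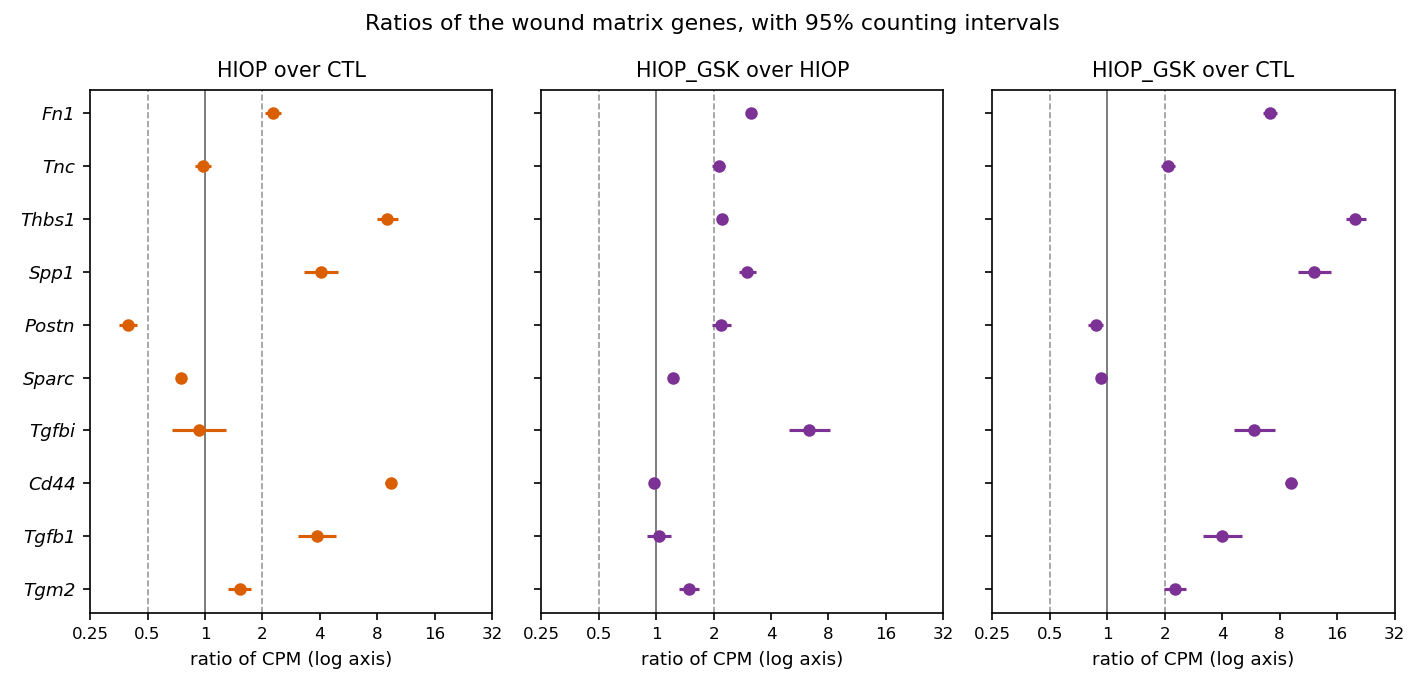
Ratios of CPM (log axis) of the 10 wound matrix genes with 95% counting intervals, for HIOP over CTL (left), HIOP_GSK over HIOP (middle) and HIOP_GSK over CTL (right); the dashed lines mark 2-fold and the solid line no difference. Cd44 and Thbs1 are farthest right in HIOP over CTL, Tgfbi in HIOP_GSK over HIOP, and Thbs1 in HIOP_GSK over CTL (19.96-fold).

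Among the adhesive glycoproteins, Fn1, which encodes the fibronectin of plasma clots and cell-made fibrils, had 4178 counts (275 CPM) in HIOP_GSK, 1492 counts (87.2 CPM) in HIOP and 618 counts (38.4 CPM) in CTL. The HIOP level was 2.27-fold that of CTL (2.07 to 2.497), and the HIOP_GSK level was 7.15-fold that of CTL (6.57 to 7.79). HIOP_GSK was the highest library and CTL the lowest, and the ratio between the injured libraries, 3.15, was larger than that of HIOP to CTL. Fn1 lay close to the 2-fold limit in HIOP over CTL: its ratio of deposited TPM was 2.07, and with a pseudocount of 0.5 its log2 ratio of TPM was 0.99.

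Tnc, tenascin C, a large matrix glycoprotein of developing and injured tissue, had 1832 counts (120.4 CPM) in HIOP_GSK, 968 counts (56.5 CPM) in HIOP and 932 counts (57.9 CPM) in CTL. HIOP and CTL had nearly the same level, with a ratio of 0.977 (0.892 to 1.07). HIOP_GSK stood above both, 2.13-fold over HIOP (1.97 to 2.30) and 2.08-fold over CTL (1.92 to 2.25), and both intervals reach below 2-fold. Tgfbi, an adhesive protein induced by TGF-beta that is abundant in the cornea and made by macrophages, had 438 counts (28.8 CPM) in HIOP_GSK, 78 counts (4.56 CPM) in HIOP and 79 counts (4.91 CPM) in CTL. Its ratio of HIOP to CTL was 0.928 (0.670 to 1.29), while HIOP_GSK was 6.32-fold over HIOP (4.96 to 8.15) and 5.86-fold over CTL (4.61 to 7.55). It was the largest ratio of the 10 genes in HIOP_GSK over HIOP and rested on the fewest counts. Of the 6 cornea and surface epithelium markers, 5 were at least 2-fold above HIOP in HIOP_GSK (median log2 ratio 1.85), and 5 were at least 2-fold below CTL in HIOP (median -4.18). The keratin gene Krt14 had 5.98 CPM in HIOP_GSK, 0.701 in HIOP and 2.48 in CTL, and was, with Krt15, highest in HIOP_GSK, as Tgfbi was. The other 4 were highest in CTL, among them the keratin gene Krt12 with 249 counts in HIOP_GSK, 56 in HIOP and 1950 in CTL, and Kera, keratocan of the corneal stroma, with 1, 0 and 59 counts in the same order. The part of corneal tissue in the Tgfbi values was not tested.

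Of the matricellular genes, Thbs1 had 5434 counts (357 CPM) in HIOP_GSK, 2766 counts (162 CPM) in HIOP and 288 counts (17.9 CPM) in CTL. Its product binds cell surface and matrix proteins, limits vessel growth and activates latent TGF-beta. The ratio of HIOP to CTL was 9.03 (7.996 to 10.2), that of HIOP_GSK to HIOP was 2.21 (2.11 to 2.31), and that of HIOP_GSK to CTL was 19.96 (17.7 to 22.5), the largest of any member in any comparison. On deposited TPM the HIOP to CTL ratio was smaller, at 7.67. Its paralog Thbs2, with 369 counts in HIOP_GSK, 961 in HIOP and 196 in CTL, was 4.61-fold higher in HIOP than in CTL (3.95 to 5.40) but 2.31-fold lower in HIOP_GSK than in HIOP (2.05 to 2.62), the opposite direction from Thbs1.

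Spp1, osteopontin, a secreted phosphoprotein that binds integrins and CD44 and marks activated phagocytes, had 1330 counts (87.4 CPM) in HIOP_GSK, 498 counts (29.1 CPM) in HIOP and 116 counts (7.21 CPM) in CTL. It was 4.04-fold higher in HIOP than in CTL (3.29 to 4.98) and 12.1-fold higher in HIOP_GSK than in CTL (10.0 to 14.8). Like Fn1 and Thbs1, it was highest in HIOP_GSK and lowest in CTL. The summed markers of microglia and macrophages, of neutrophils and of the lens also had this order. Within the neutrophil list, S100a8, S100a9 and Mmp8 were lower in HIOP_GSK than in HIOP, while Csf3r and Cxcr2 were higher. Csf3r had 61.3 CPM in HIOP_GSK and 21.0 in HIOP. The median log2 ratio of the compared neutrophil genes in HIOP_GSK over HIOP was -0.23. Among the 11 microglia and macrophage markers, 5 were above CTL and 3 below CTL by 2-fold or more in HIOP, and 9 were above HIOP by 2-fold or more in HIOP_GSK. Cd68, a lysosomal protein of phagocytes, had 180 counts in HIOP_GSK, 80 in HIOP and 21 in CTL, whereas P2ry12, a receptor of resting microglia, had 20, 7 and 32.

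Postn, periostin, which binds fibronectin, collagen and tenascin C and is made by fibroblasts, had 904 counts (59.4 CPM) in HIOP_GSK, 464 counts (27.1 CPM) in HIOP and 1100 counts (68.3 CPM) in CTL. It was 2.52-fold lower in HIOP than in CTL (2.26 to 2.82) and its HIOP_GSK level was 2.19-fold that of HIOP (1.96 to 2.46, an interval that reaches below 2-fold) and 0.869-fold that of CTL (0.795 to 0.9502). HIOP was the low library and the other two lay within 2-fold of each other. The summed pericyte and fibroblast markers lay in the same order: the 8 genes summed to 175 CPM in HIOP_GSK, 125 in HIOP and 223 in CTL. Of the 7 among them that reached 1 CPM in any library, 4 were below CTL by 2-fold or more in HIOP, and 2 were above HIOP by 2-fold or more in HIOP_GSK. Pdgfrb, Rgs5, Acta2, Col1a1 and Lum had the order of the sum, though Rgs5 and Acta2 hardly differed between HIOP_GSK and HIOP. Pdgfra and Cspg4 did not. Both were highest in HIOP_GSK and lowest in CTL, Pdgfra with 55.1 CPM in HIOP_GSK, 44.2 in HIOP and 39.2 in CTL. Col1a1, a chain of type I collagen, had 639 counts in HIOP_GSK, 346 in HIOP and 821 in CTL, and Col1a2, the partner chain, had no count in any library. The summed markers of the cornea and surface epithelium, Müller glia, astrocytes, endothelium and pigment epithelium were also lowest in HIOP. By summed CPM, HIOP was thus the lowest library in 6 of the 10 marker lists. Of these lists, that of astrocytes did not share the order of the other libraries, with 184 CPM in HIOP_GSK and 85.7 in CTL. Not every gene followed the sum of its list. Vwf and Cdh5 of endothelium, Gfap of astrocytes and Vim of Müller glia were lowest in CTL, and Apoe of Müller glia in HIOP_GSK. Vwf had 104 CPM in HIOP_GSK, 49.0 in HIOP and 35.2 in CTL. Kdr, the most abundant of the endothelium genes, was lowest in HIOP, with 316, 299 and 570 CPM in the same order.

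Sparc, a collagen-binding protein of basement membranes and glia, had 6407 counts (421 CPM) in HIOP_GSK, 5845 counts (341 CPM) in HIOP and 7315 counts (454 CPM) in CTL. It was 1.33-fold lower in HIOP than in CTL (1.29 to 1.38) and its HIOP_GSK level was 1.23-fold that of HIOP (1.19 to 1.28) and 0.927-fold that of CTL (0.896 to 0.958). On deposited TPM the ratios were 0.669 for HIOP over CTL, 1.14 for HIOP_GSK over HIOP and 0.764 for HIOP_GSK over CTL. Each lay outside the counting interval, so the size of these differences depends on the unit. All 3 libraries lay within 2-fold. The relative of Sparc, Sparcl1, an astrocyte and Müller glia protein, was at least 2-fold lower in HIOP than in CTL, with 2074 counts in HIOP_GSK, 1787 in HIOP and 3962 in CTL.

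Cd44, the only member here that is a cell surface receptor, had 7788 counts (512 CPM) in HIOP_GSK, 8967 counts (524 CPM) in HIOP and 898 counts (55.8 CPM) in CTL. Both injured libraries lay far above CTL, at 9.17-fold in HIOP_GSK (8.56 to 9.84) and 9.39-fold in HIOP (8.77 to 10.1). They hardly differed from each other, with a ratio of HIOP_GSK to HIOP of 0.977 (0.948 to 1.01). In TPM this ratio was 1.01, so its side of no difference depends on the unit. In the retina CD44 is known from Müller glia, whose markers summed to 3080 CPM in HIOP_GSK, 2480 in HIOP and 4260 in CTL, and from leukocytes. Of the Müller glia list, only Vim lay above CTL in both injured libraries, with 811 CPM in HIOP_GSK, 524 in HIOP and 222 in CTL. The other genes of that list lay below CTL in both. The summed neutrophil markers, like Cd44, lay higher in both injured libraries than in CTL, as did the summed microglia and macrophage markers and the summed lens markers. All 5 compared genes of the neutrophil list were at least 2-fold above CTL in HIOP. Of the list, S100a8, Cxcr2 and Mmp8 had no count in CTL, and Mpo, a granule enzyme gene, had none in any library. The part of these cells in the Cd44 values was not tested.

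The cytokine gene Tgfb1 had 358 counts (23.5 CPM) in HIOP_GSK, 389 counts (22.7 CPM) in HIOP and 95 counts (5.90 CPM) in CTL. It was 3.99-fold higher in HIOP_GSK than in CTL (3.17 to 5.05) and 3.85-fold higher in HIOP than in CTL (3.07 to 4.87). The injured libraries lay together, at a ratio of 1.04 (0.894 to 1.198). Tgm2, the crosslinking enzyme, had 687 counts (45.2 CPM) in HIOP_GSK, 520 counts (30.4 CPM) in HIOP and 322 counts (20.004 CPM) in CTL. It was 1.52-fold higher in HIOP than in CTL (1.32 to 1.75) and its HIOP_GSK level was 1.49-fold that of HIOP (1.32 to 1.67), each within 2-fold, and 2.26-fold that of CTL (1.97 to 2.58).

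Related genes were counted in 5 lists. Of all compared genes, 9.0% were at least 2-fold higher and 8.04% lower in HIOP over CTL. In HIOP_GSK over HIOP these shares were 4.56% and 1.69%. No list count was tested against them. The matrix receptor list, which holds integrin chains, syndecans and other receptors of these proteins, had 8 of 19 compared genes higher by 2-fold or more in HIOP than in CTL and 2 lower, with a median log2 ratio of 0.62. The 2 lower genes, Itga8 and Itga9, lay at the limit: Itga8 had 143 counts in HIOP and 271 in CTL, and Itga9 had a log2 ratio of -1.05. Plaur, the urokinase receptor, had 381 counts in HIOP and 1 in CTL, a ratio of 358 (63.9 to 14190). Itga5 and Itgb1 encode the chains of the classical fibronectin receptor. Itga5 was 5.30-fold higher in HIOP than in CTL (4.19 to 6.78), with 399 counts in HIOP_GSK, 468 in HIOP and 83 in CTL, and Itgb1 had 4205, 5882 and 1431 counts in the same order. Cd47, a thrombospondin receptor, and the syndecan gene Sdc4 were also among the 8, with log2 ratios of 1.14 and 1.46. In HIOP_GSK over HIOP, 1 of the 19 genes was at least 2-fold higher and none lower (median -0.04): Itgb2, the beta chain of leukocyte integrins, at 3.02-fold (2.53 to 3.62), with 465 counts in HIOP_GSK, 173 in HIOP and 21 in CTL. The receptor genes Sdc1, a syndecan, at 1.96-fold higher (1.65 to 2.32), and Hmmr, a hyaluronan-binding protein, at 1.55-fold lower (1.45 to 1.67), stayed within 2-fold.

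The hyaluronan list covers synthesis, breakdown and binding of the main CD44 ligand and the ERM proteins that tie CD44 to the cytoskeleton. In HIOP over CTL, 7 of 19 compared genes were at least 2-fold higher and 1 lower, beside 9.0% and 8.04% of all compared genes. The list had a median log2 ratio of 0.16. The median was 0.26 without the filter on low counts and 0.68 with a filter at CPM 5. The lower gene was Bcan, the proteoglycan brevican, with 16 counts in HIOP and 39 in CTL, which was no longer 2-fold lower on TPM or with a prior count of 10 and did not pass the filter at CPM 5. The ERM gene Msn, moesin, was 7.58-fold higher (6.98 to 8.24), with 4324 counts in HIOP_GSK, 5142 in HIOP and 638 in CTL, and the proteoglycan gene Ncan, neurocan, was 18.2-fold higher (15.9 to 20.8). Has2, a hyaluronan synthase, had a log2 ratio of 2.16 from 117 counts in HIOP and 23 in CTL. Ptx3, a pentraxin that stabilises hyaluronan matrix, had 1633 counts in HIOP and 8 in CTL, a ratio of 192 (97.2 to 445). In HIOP_GSK over HIOP, 2 genes were at least 2-fold higher and 1 lower (median 0.01), beside 4.56% and 1.69% of all compared genes. The 2 higher genes were receptors of macrophages and lymphatic endothelium, Stab1 at 4.89-fold (3.83 to 6.30) and Lyve1 at 3.32-fold (1.94 to 5.91), the second from 56 counts in HIOP_GSK and 19 in HIOP. Ptx3 was the lower gene, with 99 counts in HIOP_GSK.

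In the list of other matricellular and elastic fibre genes, 5 of 28 were higher by 2-fold or more in HIOP than in CTL and 4 were lower (median -0.17). Of all compared genes, 9.0% were higher and 8.04% lower. On deposited TPM 3 genes of the list were higher, and its median was -0.31. Beside Thbs2, Ccn1, an integrin ligand induced by stress, was 5.96-fold higher (4.90 to 7.29), and Ccn4, a relative of it, was 3.78-fold lower (2.48 to 5.92). In HIOP_GSK over HIOP, 2 were at least 2-fold higher and 1, Thbs2, was lower (median 0.10), beside 4.56% and 1.69% of all compared genes. Bgn, the proteoglycan biglycan, was 2.06-fold higher (1.83 to 2.31), and Thbs4 was 1.98-fold higher (1.59 to 2.47), just within 2-fold. The other gene past 2-fold, Ccn5, rested on 18 counts in HIOP_GSK and 8 in HIOP.

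Of 11 compared crosslinking and fibrin genes, 3 were at least 2-fold higher and 1 lower in HIOP than in CTL (median -0.17, but 0.20 without the filter on low counts and -0.02 with a filter at CPM 5). The shares of all compared genes were 9.0% higher and 8.04% lower. Tgm1, a transglutaminase of epithelia, was 22.4-fold higher (12.9 to 42.6), Fgg, the fibrinogen gamma chain, 10.8-fold (5.995 to 21.4), and Loxl4, a lysyl oxidase, 7.44-fold higher (4.07 to 14.9), each from 12 or 13 counts in CTL, and Lox itself was the lower gene, with 220 counts in HIOP and 467 in CTL. The other fibrinogen chain genes, Fga and Fgb, had at most 2 counts in any library and were not among the compared genes. In HIOP_GSK over HIOP, 1 gene was at least 2-fold higher and 1 lower (median 0.22), beside 4.56% and 1.69% of all compared genes. F13a1, the transglutaminase subunit of factor XIII that macrophages also make, was 6.19-fold higher (3.32 to 12.6), from 66 counts in HIOP_GSK and 12 in HIOP. Loxl4 was 3.52-fold lower (2.23 to 5.76), and Fgg, at 1.95-fold lower (1.44 to 2.67), stayed within 2-fold.

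The list of the TGF-beta system, with the other ligands, latency proteins, receptors, SMADs and inhibitors among its genes, had 4 of 28 genes at least 2-fold higher and none lower in HIOP than in CTL (median 0.15). Of all compared genes, 9.0% were higher and 8.04% lower. Among the 4 higher genes of the list were Fst, an activin inhibitor, at 12.9-fold (5.66 to 36.0), Tgif1, a repressor of SMAD signalling, at 7.73-fold (5.93 to 10.2), and Eng, a co-receptor of endothelium, with 661 counts in HIOP and 195 in CTL. Among the ligand genes Tgfb1, Tgfb2, Tgfb3 and Inhba, Tgfb2 was the most abundant, at 64.9 TPM in HIOP_GSK, 60.1 in HIOP and 76.0 in CTL. The receptor genes Tgfbr1 and Tgfbr2 had log2 ratios of 0.07 in HIOP over CTL. In HIOP_GSK over HIOP none of the 28 was 2-fold different in either direction (median -0.02), where 4.56% of all compared genes were higher and 1.69% lower. Bmp1, a matrix-processing protease, was 1.66-fold (1.45 to 1.90) and Acvrl1, an endothelial receptor, 1.69-fold higher (1.33 to 2.14).

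**Figure D4:**
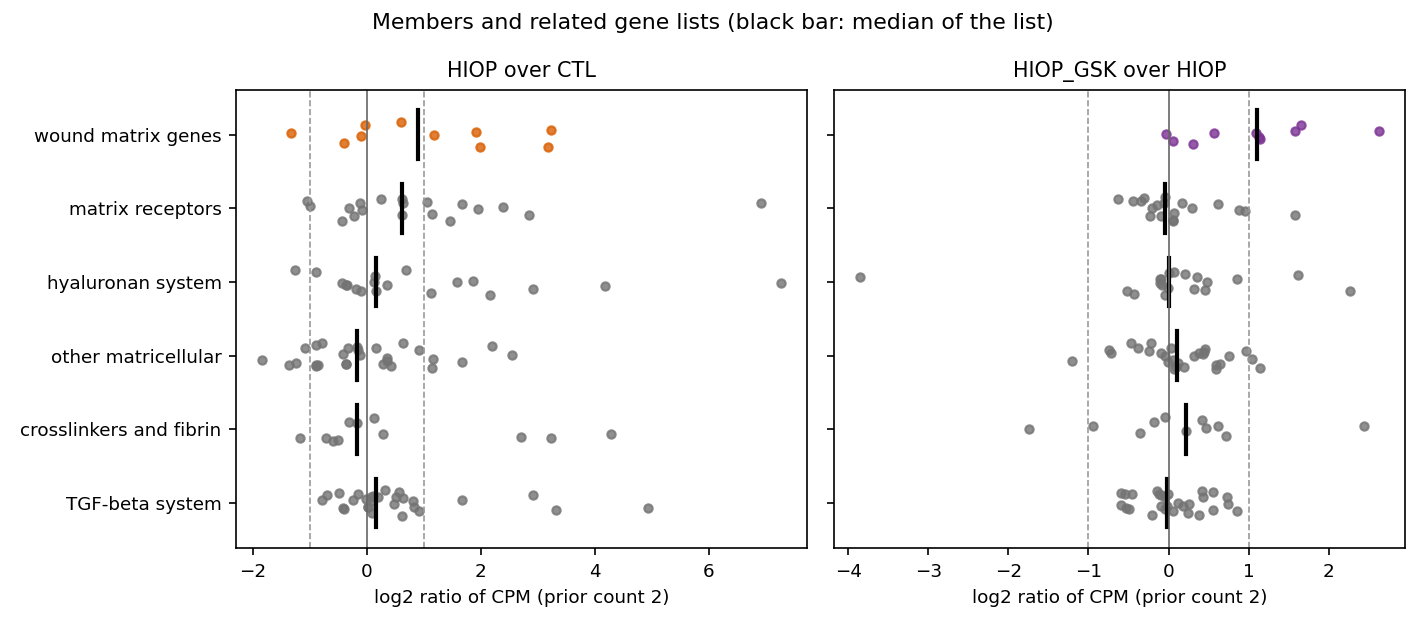
Log2 ratios of CPM (prior count 2) of the wound matrix genes and of the compared genes of 5 related lists, 1 point per gene, for HIOP over CTL (left) and HIOP_GSK over HIOP (right); black bars are medians and dashed lines mark 2-fold. In HIOP_GSK over HIOP the wound matrix genes have a median of 1.11 and the 5 lists have medians between -0.04 and 0.22. The members and lists were chosen with earlier results of these data known.

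The genes whose pair of log2 ratios, HIOP over CTL and HIOP_GSK over HIOP, lay nearest to that of 4 members were looked up among 11245 named genes with at least 50 counts in every library. The distance is the straight-line distance between such pairs, on the log2 scale, and it rests on 3 libraries only. Nearest to Fn1 were Ctsz, a lysosomal protease gene, at a distance of 0.229, and the lens crystallin genes Cryaa at 0.239 and Cryba2 at 0.260. Nearest to Spp1 were Togaram2 at 0.313, S100a4 at 0.319 and Cd24 at 0.373, and no gene lay within 0.25. Near Tnc lay Hist1h2bo at 0.136 and Ptgr1 at 0.142, with 22 genes within 0.25. Nearest to Cd44 were Kcng4 at 0.097, Oas1b at 0.123 and Axl, a receptor kinase gene, at 0.132, with 5 genes within 0.25. Axl had 1751 counts in HIOP_GSK, 2018 in HIOP and 183 in CTL.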

How the data were processed

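Per the labels' protocols, 3 µg of retinal RNA per sample went through ribosomal RNA removal and a directional library kit. Each deposited table gives whole-number counts per gene, not normalized, and TPM values scaled by the authors to a fixed sum. STAR 2.5.4b, RSEM 1.3.1 and the build Rnor_6.0 are named in the submitters' processing notes, without their roles. Whether counting used strand is not given in the sources used here, and overlapping genes and close paralogs are therefore uncertain.

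Counts were scaled with TMM factors of edgeR 4.0.16 in R 4.3.3 (1.006, 0.994 and 1.000 for HIOP_GSK, HIOP and CTL). The filter kept genes that reached a CPM of 1 in any library. Calls at 2-fold and medians used log2 CPM with a prior count of 2. Printed ratios are of scaled counts without a prior, with exact Clopper-Pearson intervals at 95%, and single levels have exact Poisson intervals. TPM intervals, used only for the order of levels, carry the relative Poisson interval of the count over to the TPM. In the deposited tables, 503, 545 and 566 genes had at least 20 counts but a TPM of 0 in HIOP_GSK, HIOP and CTL. The labels name no molecular identifiers, so reads may be copies of each other, and the intervals cover counting error only. The functions were tested on simulated counts.

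Alternatives were library totals, DESeq2 1.42.0 size factors, totals without mitochondrial and the 20 most abundant genes, the deposited TPM with a pseudocount of 0.5, prior counts of 0.5 and 10, no filter, a filter at CPM 5, and limits of 1.5-fold and 3-fold. The members and lists were chosen with earlier results of these data known. Named list genes are, per list and for each of the comparisons HIOP over CTL and HIOP_GSK over HIOP, the up to 3 compared genes whose interval stayed farthest from no difference; other list genes, and markers given with values, were named for their role after their values were seen. Of the listed genes, Itgam, Cd36, Tnxb and Pecam1 were not analysed here, and 2 further genes that these rules name are not reported here. Older names were used for 6 genes, and RefSeq gene and promoter tables on GRCr8 served for names and sequences.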

Additional observations from a re-analysis of the deposited data

How the results depend on the processing

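Of 180 ratios of single members under the 6 alternatives of scaling, unit and prior count, 1 crossed the 2-fold limit (Fn1 in HIOP over CTL, 0.99 on the log2 scale with the deposited TPM, against 1.18) and 1 changed sign (Cd44 in HIOP_GSK over HIOP, 0.01 with TPM, against -0.03). In 9 of the 180, the value lay outside the counting interval of the main ratio. With TPM, the members' median log2 ratio was 0.74 in HIOP over CTL, and for HIOP_GSK over CTL it was 2.08 with TPM and 2.15 with a prior count of 10. At a 3-fold limit, HIOP had 0 members below CTL and HIOP_GSK had 2 members above HIOP, since fewer genes pass a stricter limit. At 2-fold, 1399 genes were higher and 1250 lower for HIOP over CTL, 709 and 263 for HIOP_GSK over HIOP, and 1623 and 983 for HIOP_GSK over CTL. At 3-fold they numbered 765 and 379, 267 and 88, and 955 and 297, and at 1.5-fold 2508 and 2733, 1504 and 749, and 2739 and 2585. Without the filter, 2113 genes were lower in HIOP than in CTL, 1448 higher and 711 lower in HIOP_GSK than in HIOP, and 2534 higher and 1826 lower in HIOP_GSK than in CTL. With a filter at CPM 5 these counts were 773, 336, 114, 1055 and 594, and with a prior count of 10, 153 genes were lower in HIOP_GSK than in HIOP. Of 420 counts and medians of the 5 related lists under all alternatives, 67 moved, by over 1.5 times for a count or 0.1 or more for a median, most of them at another fold limit or filter. The largest such moves of a median were those of the hyaluronan list with a filter at CPM 5, to 0.68 against 0.16 in HIOP over CTL and to 1.34 against 0.69 in HIOP_GSK over CTL, where fewer genes are compared. No paired analysis was possible because each group has 1 library, and no library could be left out. Depth limits Tgfbi most, with 78 counts in HIOP and 79 in CTL.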
